A study of Mus musculus with 3 samples.

Results

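Cajal-Retzius cells are early-born neurons of the outer layer of the hippocampus and cortex, and in the dentate gyrus they lie along the hippocampal fissure and secrete the glycoprotein reelin. Here they were the 156 of 1876 kept cells in which at least 2 of 7 genes were detected: Reln, Ndnf, Lhx1, Lhx5, Trp73, Nhlh2 and Lhx1os. Cells with 2 or more of the oligodendrocyte precursor genes Pdgfra, Cspg4, Matn4 and Lhfpl3 were to be left out, which removed 0 cells. The runner library held 75 of these cells among 969, the aged library 32 among 393 and the control library 49 among 514. The counts of these 7 genes chose the cells, so every level of them, and every gene that goes with them, is given as a description without a test.

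Reelin binds the lipoprotein receptors encoded by Lrp8 and Vldlr on other neurons, and the adaptor protein encoded by Dab1 is then phosphorylated inside those neurons. It guides the placement of migrating neurons during development, and in the adult hippocampus it is known to act on synapses and on granule neuron position. Most Cajal-Retzius cells are known to disappear after birth, and a part of them persists in the hippocampus of adult mice.

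Each library came from dissected mouse dentate gyrus that had been digested with trypsin and run on the 10x Genomics Chromium 3' version 2 chemistry, in which molecules are counted by unique molecular identifiers (UMIs) for each gene in each barcoded cell. Runner mice had a running wheel for 12 days and belonged to the 8-week-old animals, aged mice were 14 months old and had no wheel, and control mice were 8-week-old littermates of the runners in standard housing. The strain label of all 3 libraries is hGFAP-eGFP, a line in which the human GFAP promoter drives a green fluorescent protein, mainly in astrocytes and stem cells, whereas the design text speaks of wild-type mice and mentions the reporter with the 14-month-old animals. No cell sort is described, the sources used here do not state how many mice went into a library, and the question behind the series is how astrocytes form in the dentate gyrus with running and with age.

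Of 3328 runner, 2421 aged and 2356 control barcodes, 29.1%, 16.2% and 21.8% had at least 200 genes and under 10% mitochondrially encoded UMIs. The Cajal-Retzius cells summed to 133514 UMIs in runner, 47635 in aged and 62221 in control, with a median of 1642, 1485 and 1244 UMIs per cell against 1774, 1408 and 1480 in the other cells of the same libraries. No barcode of a Cajal-Retzius cell was shared between libraries, although 8 to 10 barcodes of each pair of tables were. With 1 library per group there is no replicate check. Higher and lower are said of the libraries only, and the 95% intervals cover counting error alone. Both comparisons with control used the same control library.

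The share of Cajal-Retzius cells was 7.74% in runner (6.14 to 9.61, exact Clopper-Pearson interval), 8.14% in aged (5.64 to 11.3) and 9.53% in control (7.14 to 12.4). The runner share lay 1.79 percentage points under the control share, as a difference of -1.79 with a Newcombe interval of -5.02 to 1.12. The aged share differed from control by -1.39 points (-5.06 to 2.46). Both intervals include 0, so no difference in share was detectable at this depth. After each cell was thinned to 1000 UMIs, which left out 109 runner, 125 aged and 105 control cells, the shares were 8.14% in runner, 9.70% in aged and 8.80% in control. Runner stood lowest with and without thinning, and aged and control changed places. Without the mitochondrial limit the order differed again, with 3.11% in runner, 2.16% in aged and 2.87% in control. A further 17 barcodes in each library met the gene rule and exceeded the mitochondrial limit, among 1990 runner, 1877 aged and 1789 control barcodes over it. These are shares of the cells recovered after dissociation, and the number of Cajal-Retzius cells in the tissue was not measured.

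Most of the 156 cells lay well inside the rule. In runner, 1 cell had 2 of the 7 genes, 21 had 3, 21 had 4, 19 had 5, 10 had 6 and 3 had all 7. In aged, 4 cells had 2, 7 had 3, 7 had 4, 12 had 5, 1 had 6 and 1 had 7. In control, 9 cells had 2, 11 had 3, 17 had 4, 8 had 5 and 4 had 6. Cells at the edge of the rule, with 2 genes, had a median of 1038.5 UMIs in aged and 1103 in control, while the single such runner cell had 1564. Cells with 3 genes were about as shallow in these 2 libraries, with medians of 1096 in aged and 1014 in control. Just outside the rule, with 1 of the 7 genes, were 49 runner, 6 aged and 5 control cells. Of the 49 runner cells, 43 had Nhlh2 as the detected gene and 38 of those met the rule for immature neurons, cells with at least 2 of Dcx, Sox11, Igfbpl1 and Neurod1.

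**Figure D1:**
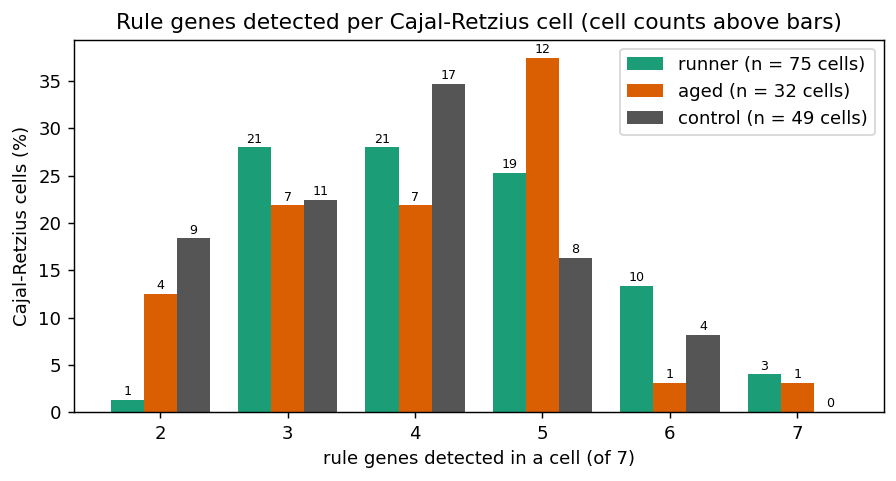
Percentage of Cajal-Retzius cells (vertical axis) by the number of the 7 rule genes detected in a cell (horizontal axis), in the runner, aged and control libraries, with cell counts above the bars. The most common count was 5 genes in aged (12 cells) and 4 genes in control (17 cells), and 1 runner cell had the minimum of 2.

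Reln, the gene of reelin itself, had 208 UMIs in 71 of 75 runner cells, 96 in 31 of 32 aged cells and 101 in 41 of 49 control cells. A single cell held 0 to 12 Reln UMIs in runner, 0 to 7 in aged and 0 to 8 in control, with medians of 2, 2.5 and 2. In the other cells Reln had 0 UMIs in 894 runner cells, 7 in 361 aged cells and 5 in 465 control cells. Reln transcripts were thus counted almost entirely in the cells that the rule chose, and part of that follows from the choice itself. The promoter of Reln is rich in CpG dinucleotides, with 47 of them and 80.7% GC in 300 bases, against a median of 7 CpGs and 52.7% GC over 32851 mouse promoters of that length.

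Ndnf, which encodes a secreted neuron-derived neurotrophic factor, had 217 UMIs in 67 runner cells, 81 in 29 aged cells and 120 in 42 control cells. It had 4 UMIs in the other runner cells, 0 in the other aged cells and 1 in the other control cells. Reln and Ndnf were detected together in 125 of the 156 cells, and all 13 cells without Reln had Ndnf, which the rule makes likely since it asks for 2 genes.

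The remaining rule genes encode transcription factors and 1 long noncoding RNA. Nhlh2, a basic helix-loop-helix factor of postmitotic neurons, had 130 UMIs in 57 runner, 40 in 21 aged and 35 in 24 control cells. It was the rule gene with most signal elsewhere, at 138 CPM (UMIs of a gene scaled to a common total per class) in runner immature neurons, against 974 CPM in runner Cajal-Retzius cells. The LIM homeodomain gene Lhx1 had 61 UMIs in 33 runner, 24 in 14 aged and 30 in 21 control cells, and its relative Lhx5 had 29 in 25 runner, 16 in 10 aged and 18 in 14 control cells. Trp73, which encodes the p53 relative p73 and is needed for the survival of these neurons in mice, had 30 UMIs in 21 runner, 17 in 14 aged and 13 in 13 control cells. Lhx1 had 0 UMIs in all 1720 other cells, and Trp73 and Lhx5 were at 0 in mature glutamatergic neurons and in microglia of every library. Full-length p73 and its amino-terminally truncated form start from different promoters and cannot be told apart in 3' counts.

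**Figure D2:**
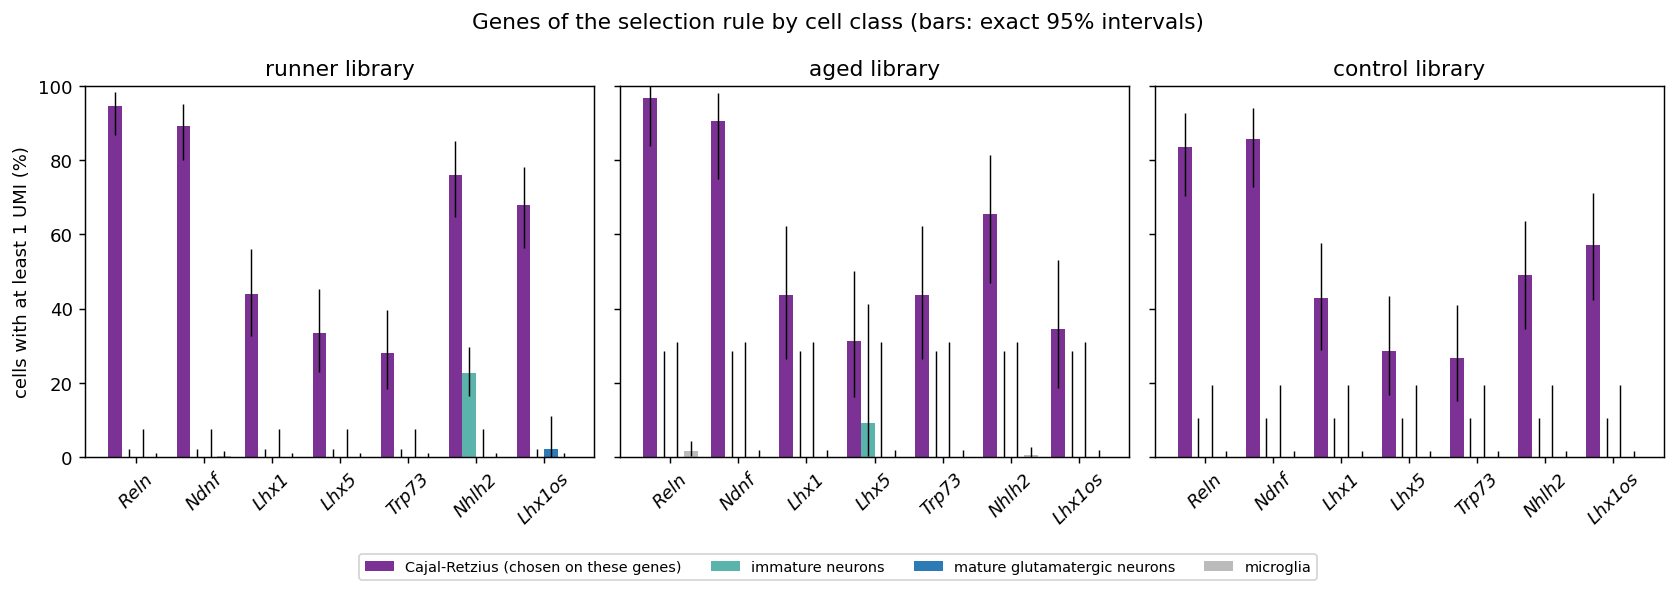
Percentage of cells with at least 1 UMI of each rule gene (vertical axis) in Cajal-Retzius cells, immature neurons, mature glutamatergic neurons and microglia, 1 panel per library, with exact 95% intervals. Reln and Ndnf were detected in 83.7% to 96.9% of Cajal-Retzius cells, which were chosen on these genes, and Nhlh2 in 22.6% of runner immature neurons.

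Lhx1os, the noncoding RNA on the strand opposite to Lhx1, had 92 UMIs in 51 runner, 16 in 11 aged and 47 in 28 control cells. Its annotated gene runs on the plus strand at chr11:84525660-84535831 and Lhx1 on the minus strand at chr11:84518284-84525535 (GRCm38), so that the pair points away from each other with 125 bases between their starts. Lhx1os was detected in 38 of 68 cells with Lhx1 (55.9%) and in 52 of 88 cells without it (59.1%). Both genes belong to the rule, so cells without Lhx1 had to enter through other rule genes, Lhx1os among them, and the shares carry that choice. A median cell held 0 Lhx1 UMIs in each library. The sources used here do not state whether the counting used strand, but the annotated genes do not overlap.

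The promoter windows of 4 rule genes are printed to show how the divergent pair shares its sequence and how Nhlh2 and Reln differ in composition. Each runs from 250 bases before to 50 bases after an annotated start in RefSeq on GRCm38.p6, in the gene's own direction. Capitals mark every match, on either strand, to 4 motifs, and no marked matches overlap. The first is CCAAT, the CCAAT box. The next is GGGCGG, known as the GC box. A homeodomain core is written TAATTA. The E-box searched is CAGCTG. The Reln window is chr5:22344656-22344955 on the minus strand, that of Lhx1 chr11:84525485-84525784 on the minus strand, that of Lhx1os chr11:84525410-84525709 on the plus strand and that of Nhlh2 chr3:102009895-102010194 on the plus strand.
Reln: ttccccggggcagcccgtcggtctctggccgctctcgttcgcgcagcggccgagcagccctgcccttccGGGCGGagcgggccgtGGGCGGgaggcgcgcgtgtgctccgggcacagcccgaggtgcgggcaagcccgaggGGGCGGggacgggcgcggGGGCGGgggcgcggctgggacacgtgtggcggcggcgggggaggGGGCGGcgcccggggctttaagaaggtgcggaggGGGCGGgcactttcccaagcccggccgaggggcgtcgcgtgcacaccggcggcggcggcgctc
Lhx1: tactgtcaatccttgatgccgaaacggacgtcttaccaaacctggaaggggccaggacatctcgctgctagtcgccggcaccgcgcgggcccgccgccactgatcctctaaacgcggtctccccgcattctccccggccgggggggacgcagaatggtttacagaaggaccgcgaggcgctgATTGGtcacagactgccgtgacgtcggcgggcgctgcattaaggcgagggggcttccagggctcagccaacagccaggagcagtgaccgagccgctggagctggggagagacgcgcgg
Lhx1os: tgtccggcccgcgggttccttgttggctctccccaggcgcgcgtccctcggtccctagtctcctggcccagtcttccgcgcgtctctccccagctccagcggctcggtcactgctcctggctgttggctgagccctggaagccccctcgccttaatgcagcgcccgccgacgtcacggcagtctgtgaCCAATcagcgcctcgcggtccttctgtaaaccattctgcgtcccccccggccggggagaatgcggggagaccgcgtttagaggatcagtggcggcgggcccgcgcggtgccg
Nhlh2: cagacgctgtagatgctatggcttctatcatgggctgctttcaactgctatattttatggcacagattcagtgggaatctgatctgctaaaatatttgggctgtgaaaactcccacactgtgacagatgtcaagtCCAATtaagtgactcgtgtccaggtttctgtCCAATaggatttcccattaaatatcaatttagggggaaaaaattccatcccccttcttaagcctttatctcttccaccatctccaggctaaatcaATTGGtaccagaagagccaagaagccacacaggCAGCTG
The windows of Lhx1 and Lhx1os share 225 bases, read from opposite strands, and the CCAAT match of each is the same site. The Reln window held 6 GC boxes, a motif present in 35.7% of all promoters of this length. The Nhlh2 window held 3 CCAAT matches and 1 E-box, present in 37.4% and 16.3% of promoters, and had 2 CpGs and 43.3% GC. No TAATTA was found in these 4 windows, against 5.29% of all promoters. These are matches to letters and say nothing on binding.

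Beyond the rule, the profile of the Cajal-Retzius cells was set against that of all other cells of the same library, neurons and glia together. Against all other cells of a library, 291 of 11319 genes stood at least 2-fold higher in each of the 3 libraries (2.57%) and 694 at least 2-fold lower (6.13%), on the scale of CPM plus 20. Of 18 measured genes on a list of further Cajal-Retzius genes, 12 were past 2-fold higher in every library and 0 past 2-fold lower, with a median log2 ratio of 2.39 against -0.14 for all genes. The list was drawn up with earlier results of these data known, and the same counts chose the cells, so it is no independent support for the label. The markers Reln, Ndnf, Nhlh2, Lhx1 and Trp73 were each detected in every library, which the rule itself brings about. Of known markers outside the rule, Calb2 was found in a minority of the cells, and Ebf2 and Ngfr were not listed.

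Snhg11, a long noncoding host gene of small nucleolar RNAs, had the highest ratio outside the rule. It stood at 3041 CPM in runner, 3086 in aged and 2684 in control Cajal-Retzius cells, and at 9.59 CPM in other runner cells, 32.2 in other aged cells and 30.9 in other control cells, a log2 ratio of 5.73 to 6.69. Cacna2d2, an auxiliary subunit of voltage-gated calcium channels, followed at 502 CPM in runner, 567 in aged and 466 in control Cajal-Retzius cells, against 3.60, 3.57 and 5.63 CPM in other runner, aged and control cells. Its paralogue Cacna2d1 reached 172 CPM in runner, 231 in aged and 209 in control Cajal-Retzius cells. Mature glutamatergic neurons, cells with at least 2 of Slc17a7, Prox1, C1ql2 and C1ql3, had 257, 156 and 187 CPM of Cacna2d1 in runner, aged and control. Both subunits were past 2-fold higher in all 3 libraries against other cells and against immature neurons.

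The rest of the 20 genes with the highest ratios had various roles. Gap43 and Stmn2, of growing axons, had log2 ratios of at least 3.37 and 3.09 in every library. Dync1i1, a dynein intermediate chain, had at least 3.36, and Meg3, a maternally expressed noncoding RNA of neurons, at least 3.17. Nxph4, which encodes a neurexophilin, and Robo2, a receptor for Slit guidance cues, each had at least 3.05. Ramp1, a partner of the CGRP receptor, closed the set at 2.65, with 2045 CPM in runner, 1470 in aged and 2330 in control Cajal-Retzius cells, against 200.2, 218 and 248 CPM in other runner, aged and control cells. The others were A330076H08Rik, Ankrd35, Cxcl12, Nr2f2, Cib2, Ly6h, Pkib, 6330403K07Rik, Clstn2, Cd200 and Cntnap2, and all 20 lay past 2-fold in each library.

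**Figure D3:**
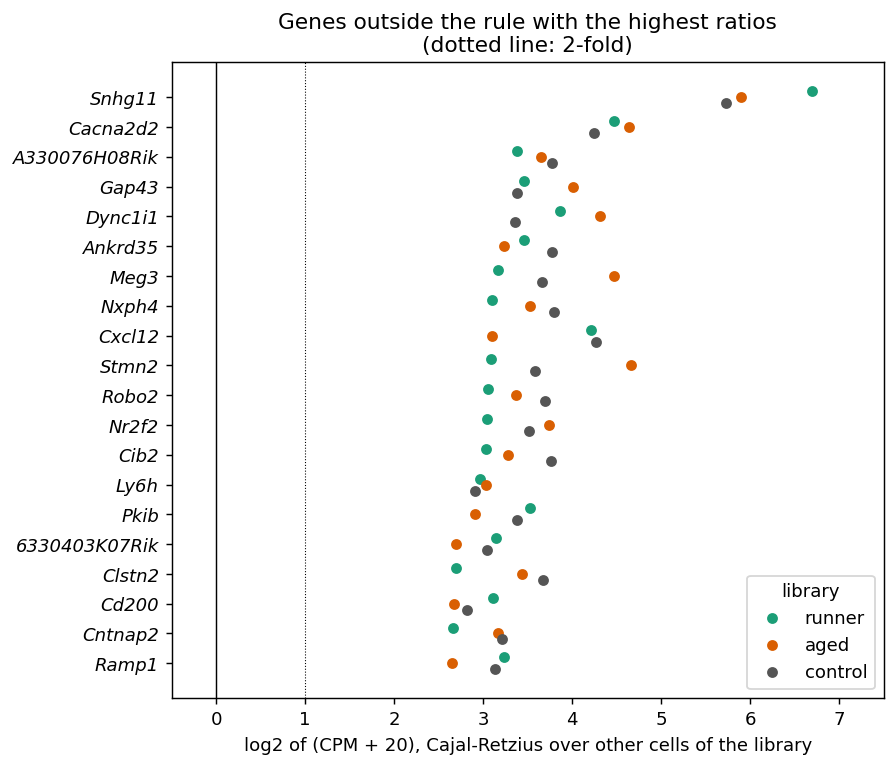
The 20 genes outside the rule with the highest log2 ratio of (CPM + 20), Cajal-Retzius over other cells (horizontal axis), 1 point per library, with a dotted line at 2-fold. Snhg11 stands apart at 5.73 to 6.69, and all points lie at 2.65 or more.

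Transcription factors known from developing Cajal-Retzius cells were present at low counts. Ebf3 had 18 UMIs in 18 runner cells, 6 in 5 aged cells and 5 in 5 control cells, with 0 UMIs in immature and in mature neurons of all libraries and 9, 4 and 7 UMIs in runner, aged and control microglia. Tbr1, a T-box factor of glutamatergic neurons, had 14 UMIs in runner, 7 in aged and 10 in control cells. The homeobox gene Emx2 had 32 UMIs in runner, 7 in aged and 14 in control, and the zinc finger gene Zic1 had 19 in runner, 7 in aged and 6 in control. The homeobox gene Barhl2 was listed for the runner library, at 9 UMIs, and was not listed for aged and control. Ebf2 and the neurotrophin receptor gene Ngfr were not listed for any library, which means UMIs in fewer than 3 barcodes. Diablo, which encodes a mitochondrial protein released in apoptosis, was detected in 43 runner, 11 aged and 26 control cells, at 629, 420 and 611 CPM in runner, aged and control, and it was past 2-fold higher in every library against immature neurons, mature neurons and all other cells.

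Cxcl12 and Cxcr4, a ligand and its receptor, were both higher in Cajal-Retzius cells than in other cells. Cxcl12 encodes the chemokine that the meninges release and that holds developing Cajal-Retzius cells at the brain surface, and Cxcr4 encodes its receptor. Cxcl12 had 57 UMIs in 38 runner, 13 in 10 aged and 43 in 22 control Cajal-Retzius cells, a log2 ratio to other cells of 4.21 in runner, 3.09 in aged and 4.27 in control. Cxcr4 had 9 UMIs in runner, 5 in aged and 4 in control. Both lay past 2-fold higher in all 3 libraries, while Cxcl14, another chemokine, lay past 2-fold lower.

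The transmitter genes that were detected were those of glutamate release. Slc17a6, the vesicular glutamate transporter VGLUT2, had 32 UMIs in 28 runner, 9 in 7 aged and 16 in 14 control cells. In mature glutamatergic neurons it had 0 UMIs in 75 cells and in microglia 0 in 819 cells. In immature neurons it had 20 UMIs in runner, 0 in aged and 2 in control. For the 75 mature neurons, 3 divided by the number of cells gives a rough limit of 4% of cells with a UMI. Slc17a7, the transporter VGLUT1, had 3 UMIs in runner and 0 in aged and control Cajal-Retzius cells, against 565, 585 and 667 CPM in runner, aged and control mature glutamatergic neurons, which were chosen partly on it. Gad1 and Slc32a1, needed to make and to load GABA, had 0 UMIs in the 156 cells, and Gad2 had 1 UMI. For 0 UMIs in 156 cells the same rough limit is 1.92% of cells with a UMI. Such limits are narrower than the exact intervals given elsewhere, and they do not limit the share of cells that express a gene. Slc17a6 was detected in 49 of 156 cells (31.4%, 24.2 to 39.3) at a depth at which most genes are missed in most cells.

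The receptors for glutamate were low against mature glutamatergic neurons. Of 8 measured genes, 7 were past 2-fold lower in every library, and the median log2 ratio was -3.07 against -0.03 for all genes, where 386 of 4048 genes were lower (9.54%) and 218 higher (5.39%). The AMPA receptor gene Gria2 stood at 367 CPM in runner, 714 in aged and 498 in control Cajal-Retzius cells, against 2044, 1755 and 1708 CPM in runner, aged and control mature neurons. Grin2b, an NMDA receptor subunit, had 0 UMIs in runner, 0 in aged and 1 in control Cajal-Retzius cells, against 858, 663 and 400.4 CPM in runner, aged and control mature neurons. Gria3 and the metabotropic receptor gene Grm5 had 0 UMIs in all 156 cells. Grin1, the NMDA receptor subunit common to all types, stood at 22.5 CPM in runner, 0 in aged and 48.2 in control Cajal-Retzius cells, against 236, 156 and 133 CPM in runner, aged and control mature neurons.

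Most GABA and glycine receptor genes and a part of the ion channel genes were past 2-fold lower than in mature neurons, where 9.54% of all genes were lower and 5.39% higher. Of 8 measured GABA and glycine receptor genes, 6 were past 2-fold lower than in mature neurons in every library, among them Gabra2, with 6 UMIs in runner, 4 in aged and 6 in control. Of 15 channel genes, 7 were past 2-fold lower and 1, Cacna2d2, higher. Cacna1e, a calcium channel pore gene, had 0 UMIs in Cajal-Retzius cells, and the sodium channel gene Scn8a and potassium channel gene Kcnq3 were among those lower. Slc12a5, the chloride exporter KCC2 of mature neurons, had 0 UMIs in runner, 0 in aged and 1 in control Cajal-Retzius cells, against 207, 156 and 187 CPM in runner, aged and control mature neurons. The chloride importer gene Slc12a2 had 1 UMI, in an aged cell, so neither transporter was detectable at more than the level of single UMIs.

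**Figure D4:**
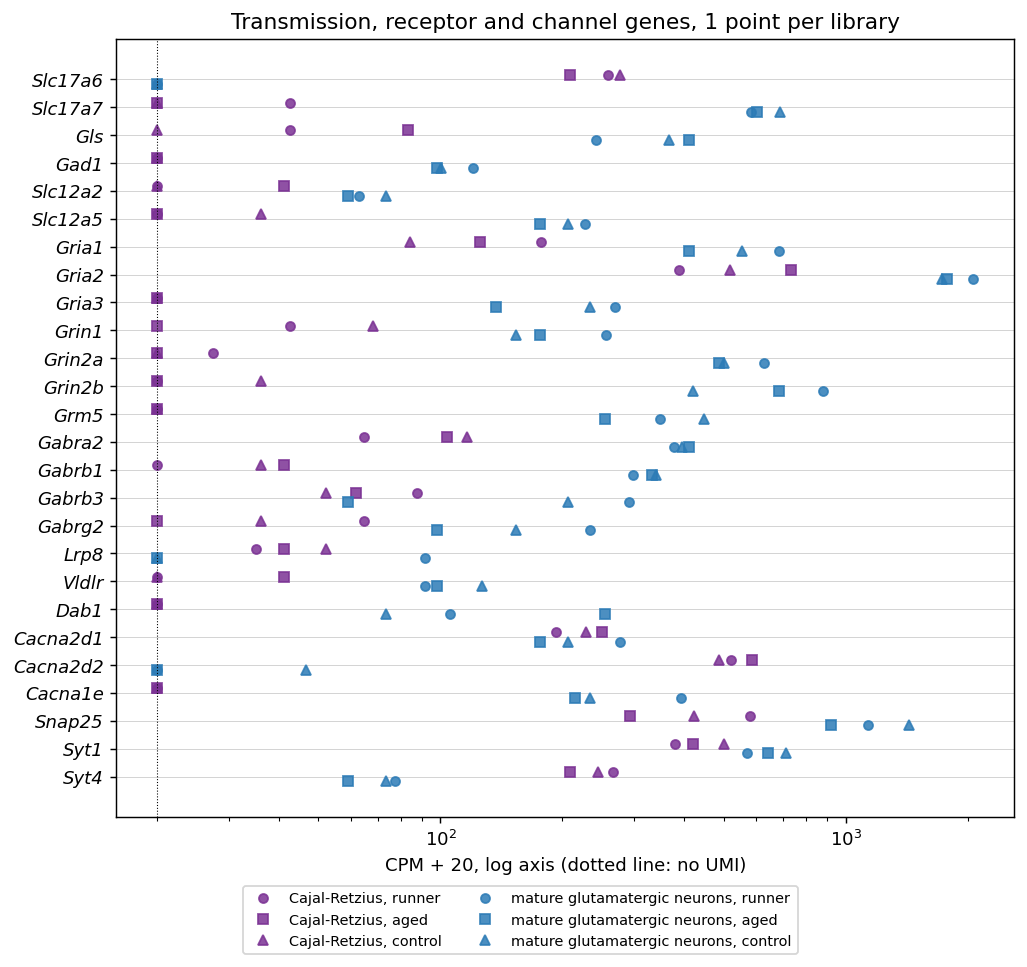
CPM plus 20 on a log axis for 26 genes of transmission, receptors and channels in Cajal-Retzius cells (purple) and mature glutamatergic neurons (blue), 1 point per library, with the dotted line at no UMI. The Cajal-Retzius points of Grin2b, Gria3 and Grm5 lie at or near the line, and those of Slc17a6 and Cacna2d2 lie to the right of the mature neurons.

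Genes of vesicle release were less far below mature neurons. Snap25, a fusion protein of synaptic vesicles, stood at 562 CPM in runner, 273 in aged and 402 in control Cajal-Retzius cells, against 1115, 897 and 1415 CPM in runner, aged and control mature neurons. Syt4, a synaptotagmin found on dense-core vesicles, stood at 247 CPM in runner, 189 in aged and 225 in control Cajal-Retzius cells, against 57.2, 39.0 and 53.4 CPM in runner, aged and control mature neurons. Of 16 release genes, 4 were past 2-fold higher than in other cells in all libraries, against 2.57% of all genes, and 0 lower. Against mature neurons, Cplx2 and Syp were past 2-fold lower and Syt4 higher, of 14 measured, which is near the 9.54% and 5.39% of all genes.

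On the receiving side of reelin the cells had little. Lrp8 had 2 UMIs in runner, 1 in aged and 2 in control Cajal-Retzius cells, Vldlr had 1 UMI, in an aged cell, and Dab1 had 0 UMIs in all 156. In immature neurons Lrp8 stood at 144, 157 and 54.8 CPM in runner, aged and control, and in mature neurons Dab1 stood at 85.8, 234 and 53.4 CPM. In aged and control immature neurons 3 UMIs correspond to 157 and 54.8 CPM, and in control mature neurons to 80.1 CPM. The values there thus rest on 3 UMIs or fewer. The log2 ratio of Lrp8 to immature neurons was -2.23 in runner, -2.11 in aged and -0.52 in control. Of 14 measured genes of the reelin pathway, 0 were past 2-fold higher than in other cells and 3 were lower, namely Dab1, the integrin gene Itgb1 and Pik3r1, against 2.57% and 6.13% of all genes. The ligand gene was therefore counted in cells with few or no transcripts of its receptors and adaptor.

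Against immature neurons, 195 of 5088 genes were past 2-fold higher in all libraries (3.83%) and 208 lower (4.09%). Of 9 measured immature neuron genes 6 were lower, in a class chosen on 4 of them, with the transcription factor gene Sox11 at 59.9, 63.0 and 80.4 CPM in runner, aged and control Cajal-Retzius cells against 2880, 4019 and 3249 CPM in immature neurons of the same libraries. Of 13 actin and tubulin genes 6 were lower, including the neuronal tubulin gene Tubb3, at 202, 147 and 145 CPM in runner, aged and control Cajal-Retzius cells against 1161, 835 and 821 CPM in immature neurons of the same libraries. Gap43 and Meg3 were past 2-fold higher. The aged library held 11 immature and 10 mature neurons, which limits every ratio to them.

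Genes induced by tissue dissociation differed between the neuron classes. Of 14 measured, 9 were past 2-fold higher in Cajal-Retzius cells than in mature neurons in every library, and 5 of 14 against immature neurons, beside 5.39% and 3.83% of all genes. Fos, an immediate early gene, stood at 2951 CPM in runner, 1616 in aged and 2475 in control Cajal-Retzius cells, against 172, 273 and 267 CPM in runner, aged and control mature neurons. Against all other cells, which are mostly glia, 0 of 16 were past 2-fold higher and 3 were lower, beside 2.57% and 6.13%. The part of handling in these levels was not tested.

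Markers of other cell types were detected in many Cajal-Retzius cells at low levels. At least 1 astrocyte marker was found in 45 of 75 runner, 17 of 32 aged and 34 of 49 control cells, at least 1 oligodendrocyte marker in 38, 14 and 30, and at least 1 microglia marker in 30, 11 and 20. Mbp, of myelin, was detected in 42.7% of runner, 28.1% of aged and 51.0% of control cells. The 10 genes lowest against other cells were C1qb, C1qc, Tyrobp, C1qa, Bin2, Olfml3, Lpcat2, Gpr34, Lgmn and Csf1r, all known from microglia. All 11 listed microglia markers were at 1 or more UMIs in runner Cajal-Retzius cells, 7 in aged and 9 in control, and their summed level was 1446, 294 and 514 CPM in runner, aged and control, against 16804, 24484 and 20213 CPM in the other cells of these libraries. At 0 in aged Cajal-Retzius cells were C1qc, Tmem119, Trem2 and Tyrobp, and at 0 in control Csf1r and Trem2. Oligodendrocyte markers summed to 1700.2, 2015 and 1061 CPM in runner, aged and control, against 13684, 9601 and 7441 CPM in other cells, and astrocyte markers to 614, 567 and 1286 CPM, against 3021, 3532 and 3456 CPM in other cells. Mog and Ermn were at 0 in control and Ermn in aged, while Aqp4 was at 0 in aged and control, Aldh1l1 and Slc4a4 in runner and control, and Slc1a3 and Gja1 in aged. In 11 runner, 1 aged and 6 control cells, 3 or more markers of 1 of these 3 classes were detected. Results that rest on these cells are given with and without them, and for some genes also in the 34 runner, 20 aged and 14 control cells with no UMI of 5 glial genes, C1qa, C1qb, C1qc and Mbp among them.

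Among the cells themselves, genes of glia were prominent among those with the widest spread. At 1000 UMIs per cell, the variance over the mean across 136 cells was 11.9 for Apoe, 10.1 for Cst3, 8.69 for the abundant nuclear RNA Malat1 and 7.79 for Mt1, against a median of 1.02 over 1099 genes. The rule genes lay between 0.979 for Trp73 and 1.54 for Lhx1. Lhx1 lay above the 95th percentile of all genes, 1.41, and the cells were chosen on these genes, which bears on their spread.

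Calb2, the calretinin gene and a classic marker of Cajal-Retzius cells, was detected in a minority of them. It had 35 UMIs in 24 of 75 runner cells, 1 UMI in 1 of 32 aged cells and 13 in 10 of 49 control cells. At 1000 UMIs per cell it was detected in 16 of 72 runner cells (22.2%, 13.3 to 33.6), 0 of 26 aged cells (0%, up to 13.2) and 6 of 38 control cells (15.8%, 6.02 to 31.3). At full depth the CPM ratio was 1.25 (0.648 to 2.58) for runner over control and 0.100 (0.00236 to 0.669) for aged over control, on 14 UMIs in the aged and control cells, under the minimum of 20. It was 0.0913 (0.00215 to 0.608) for aged without cells with 3 or more glial markers and 0.119 (0.00251 to 1.06) in cells with no UMI of the 5 glial genes, where the interval included 1. Its level in immature neurons was 1699, 313 and 201 CPM in runner, aged and control, and the part of free RNA in the counts was not tested. Of 49 cells with Slc17a6, 11 also had Calb2.

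Between runner and control, the genes of the rule were close to level. The CPM ratio, runner over control, was 0.960 for Reln (0.753 to 1.23), 0.843 for Ndnf (0.671 to 1.06) and 0.948 for Lhx1 (0.603 to 1.52), and it was 0.751 for Lhx5, 1.08 for Trp73 and 0.912 for Lhx1os. Nhlh2 was the exception at 1.73 (1.18 to 2.59), with 22.6 (3.88 to 909) in other cells, and the part of free RNA in it was not tested. The other cells held 168 immature neurons among 894 in runner and 33 among 465 in control, so the 22.6 compares pools of unlike make-up. In cells with no UMI of the 5 glial genes the ratio of Nhlh2 was 1.59 (0.799 to 3.53), which includes 1. Over all genes with at least 20 UMIs in the pair, 133 of 1628 were past 2-fold higher in runner (8.17%) and 48 past 2-fold lower (2.95%). The interval lay above 1 for 84 genes (5.16%) and below 1 for 77 (4.73%). Of 12 measured further Cajal-Retzius genes, 1 was past 2-fold, Thsd7b, and 0 had an interval clear of 1, which is close to the share of all genes for the fold and under it for the interval.

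General neuron genes had ratios above 1 in runner cells. All 9 measured general neuron genes had a ratio above 1, with a median log2 ratio of 0.34 against 0.04 over all genes. Of these 9, 2 had intervals above 1, beside 5.16% of all genes. Gap43 had 104 UMIs in runner and 28 in control cells, a ratio of 1.73 (1.13 to 2.73), and the ratio was 2.08 in the other cells. In cells with no UMI of the 5 glial genes it was 1.38 (0.728 to 2.84), which includes 1. Map2, a dendritic microtubule protein gene, had 44 UMIs in runner and 7 in control, a ratio of 2.93 (1.31 to 7.71), with 1.48 in other cells. Syp, which encodes synaptophysin, belongs to the separate list of vesicle release genes. It had 24 UMIs in runner and 3 in control, a ratio of 3.73 (1.13 to 19.3), with 1.35 in other cells. Of 8 measured release genes, 4 had a ratio above 1 and 4 under 1, with a median log2 ratio of 0.05. There 2 intervals lay above 1 and 0 below, beside 5.16% and 4.73% of all genes, and Syp had the highest ratio of the list. For Gap43, Map2 and Syp the ratio in other cells was above 1 as well. The other cells differed in make-up, with 168 immature and 48 mature neurons among 894 in runner. In control they held 33 and 17 among 465. The part of this make-up in the ratios of other cells was not tested. Map2 and Syp rest on 7 and 3 control UMIs and were not repeated without cells with glial markers.

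Several of the 10 highest runner genes had ratios of like size in the other cells. Rps27rt, Rpl37rt, Gm1821, Gm8430, Rpl10-ps3 and Gm8624, ribosomal protein retrogenes and pseudogenes whose reads can be shared with their parent genes, had ratios of 2.84 to 6.37 in Cajal-Retzius cells and of 2.67 to 3.29 in other cells. In cells with no UMI of the 5 glial genes the interval of Gm8430 included 1, at 5.74 (0.906 to 239). Pet100, an assembly factor of cytochrome c oxidase, had 24 UMIs in 21 runner cells and 1 UMI in control, a ratio of 11.2 (1.82 to 460) with 1.06 (0.819 to 1.38) in other cells. Of 5 measured microglia markers, 4 were past 2-fold higher in runner. Without the cells that carry 3 or more glial markers, the ratio of Pet100 was 9.57 (1.52 to 397).

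At the low end of the runner comparison were glial and mitochondrial genes. Apoe, a lipid carrier of astrocytes, had 34 UMIs in runner and 96 in control, of which 54 lay in 1 control cell, and its ratio of 0.165 (0.108 to 0.246) became 0.403 without cells with glial markers. The metallothionein genes Mt1 and Mt2 had ratios of 0.189 and 0.169, that of Mt1 being 0.417 without those cells, and the glycolytic astrocyte gene Aldoc 0.217. In the 34 runner and 14 control cells with no UMI of the 5 glial genes, the ratio was 1.43 (0.473 to 5.83) for Mt1 and 0.729 (0.284 to 2.09) for Apoe, so both intervals then included 1. There Mt2 had 0.478 (0.113 to 2.30), Aldoc 0.446 (0.122 to 1.78) and Gm10076 0.691, whose intervals included 1 as well. The mitochondrially encoded genes mt-Co1 and mt-Nd1 had 0.390 and 0.646, with 0.421 and 0.648 in other cells, and Gm10076 had 0.489, with 0.512. Ddn, of dendrites, and Utrn, which encodes utrophin, had ratios of 0.200 and 0.266 on 6 and 12 UMIs in runner and 14 and 21 in control. In cells with no UMI of the 5 glial genes Ddn had 3 UMIs in runner and 0 in control, so its direction turned, and Utrn had a ratio of 0.199.

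Between aged and control, Reln had a ratio, aged over control, of 1.24 (0.929 to 1.66) and Ndnf of 0.882 (0.657 to 1.18). Lhx1os was lower, with 16 UMIs in 11 of 32 aged cells and 47 in 28 of 49 control cells, a ratio of 0.445 (0.235 to 0.799), while Lhx1 had 1.04 (0.585 to 1.85). In cells with no UMI of the 5 glial genes the ratio of Lhx1os was 0.658 (0.240 to 1.83), which includes 1. At 1000 UMIs per cell Lhx1os was detected in 42.3% of aged (23.4 to 63.1) and 52.6% of control cells (35.8 to 69.0). Over all genes with at least 20 UMIs in the pair, 35 of 817 were past 2-fold higher in aged (4.28%) and 74 past 2-fold lower (9.06%). The interval lay above 1 for 32 genes (3.92%) and below 1 for 68 (8.32%), so lower genes were the more frequent in aged.

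Most genes of energy metabolism encoded in the nucleus had ratios under 1 in aged Cajal-Retzius cells, and few had intervals clear of 1. Of 25 oxidative phosphorylation genes encoded in the nucleus, 21 had a ratio under 1, with a median log2 ratio of -0.39 against -0.08 over all genes, and 5 had intervals below 1. Atp5b, Atp5h and Atp5l, subunits of ATP synthase, had ratios of 0.449, 0.444 and 0.442, with 0.899, 0.909 and 0.791 in other cells of aged over control. All 7 measured glycolysis genes had a ratio under 1, with a median log2 ratio of -0.99, and 2 had intervals below 1, Aldoa and Aldoc. These counts of intervals below 1 stand beside 8.32% of all genes. Aldoc is also one of the astrocyte markers, which summed to 567 CPM in aged and 1286 CPM in control Cajal-Retzius cells. The ratios of these nuclear genes were not repeated without cells with glial markers. Of 10 measured mitochondrially encoded genes, 6 had a ratio above 1, with a median log2 ratio of 0.14, and 2 intervals lay above 1 and 1 below. In runner the oxidative phosphorylation median was -0.21, against 0.04 over all genes of that comparison. There 5 of 25 intervals lay below 1 and 0 above, beside 4.73% and 5.16% of all genes. Because cells with much mitochondrial RNA were filtered out, mitochondrially encoded genes were limited by that filter in each library.

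Chchd10, a protein of the mitochondrial intermembrane space, ranked lowest in the aged comparison by the interval bound nearest to 1. It had 6 UMIs in 5 of 32 aged cells, 89 in 38 of 75 runner cells and 46 in 22 of 49 control cells. The aged ratio to control was 0.170 (0.0595 to 0.400), against 0.982 (0.764 to 1.26) in other cells, and the runner ratio to control was 0.902 (0.625 to 1.32). Without the cell with glial markers in aged and the 6 in control it was 0.188. Tmem258 and 2210016L21Rik were low at 0.227 and 0.196, on 4 and 3 UMIs in aged and 23 and 20 in control. Apoe, Mt1, Mt2 and Cst3, genes of high level in glia, had ratios of 0.286, 0.299, 0.178 and 0.398. Without cells with glial markers Apoe had 0.475 (0.236 to 0.905), Cst3 0.552 (0.398 to 0.757), Mt1 0.679 (0.371 to 1.21), and Mt2 0.297 (0.0538 to 1.10), so that the intervals of Mt1 and Mt2 then included 1. In the 20 aged and 14 control cells with no UMI of the 5 glial genes, the ratio was 1.02 (0.369 to 3.05) for Apoe, 0.691 (0.412 to 1.17) for Cst3, 2.07 (0.651 to 8.65) for Mt1, 0.296 (0.0268 to 2.07) for Mt2, 0.296 (0.0479 to 1.39) for 2210016L21Rik and 0.0741 (0.00826 to 0.315) for Chchd10.

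Genes induced by dissociation had intervals below 1 in aged cells for a part of the list. Of 12 measured dissociation genes, 9 had a ratio under 1, with a median log2 ratio of -0.34 against -0.08 over all genes, and 5 intervals lay below 1, against 8.32% of all genes. Ier2 had 30 UMIs in aged and 95 in control cells, a ratio of 0.412 (0.264 to 0.628), with 0.746 in other cells. In the 20 aged and 14 control cells with no UMI of the 5 glial genes, the ratio of Ier2 was 0.681 (0.358 to 1.31), and the interval included 1. Dnajb1 stood at 0.270 and the ubiquitin gene Ubb at 0.410, with 0.646 and 0.497 in other cells. In runner, 9 of 14 had a ratio above 1, with a median of 0.19, and Junb stood at 1.47 (1.19 to 1.81) against 0.704 in other cells.

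Few genes were higher in aged Cajal-Retzius cells. Meg3 had 249 UMIs in all 32 aged cells and 203 in 47 of 49 control cells, a ratio of 1.60 (1.33 to 1.94) with 0.904 (0.710 to 1.15) in other cells. Pafah1b1 encodes LIS1, a dynein regulator that acts downstream of reelin in migrating neurons. It had 21 UMIs in aged, 47 in runner and 8 in control cells, a ratio of 3.43 (1.46 to 8.95) for aged over control and 2.74 (1.28 to 6.71) for runner over control, with 1.44 and 1.27 in other cells. Both ratios rest on the 8 UMIs of the shared control library, and in cells with no UMI of the 5 glial genes they were 2.17 (0.574 to 12.1) for aged and 2.02 (0.594 to 10.7) for runner, intervals that include 1. Clstn1, a calsyntenin gene of axonal transport, had a ratio of 2.53 (1.34 to 4.95) with 1.31 in other cells.

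The remaining high genes of the aged comparison included some that rested on few cells. Scd2, a lipid desaturase gene, had a ratio of 3.92 (1.49 to 12.1) with 10 of 18 UMIs in 1 cell, and 1.90 (0.548 to 7.38) without cells with glial markers. Gm8430 and Rpl37rt had 7.40 and 2.87, the mitochondrial genes mt-Co3 and mt-Atp6 4.18 and 1.81, and Xist 2.23, with 1.57 in other cells. Xist was detected in 19 of 32 aged and 14 of 49 control cells, and the sex of the mice was not taken into account. In cells with no UMI of the 5 glial genes Gm8430 had 5.93 (0.843 to 257), Rpl37rt 4.94, mt-Co3 8.30 and mt-Atp6 3.01.

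Cxcl12 was lower in both comparisons. Its ratio was 0.618 (0.409 to 0.940) for runner over control and 0.395 (0.195 to 0.748) for aged over control, again against the same control library. In other cells the ratios were 0.249 and 0.847 on 27 UMIs in all. Ramp1 was lower in aged, at 0.631 (0.467 to 0.844), with 0.880 in other cells, and had 0.877 (0.715 to 1.08) in runner. Snhg11 and Cacna2d2 had intervals that include 1 in both comparisons.

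**Figure D5:**
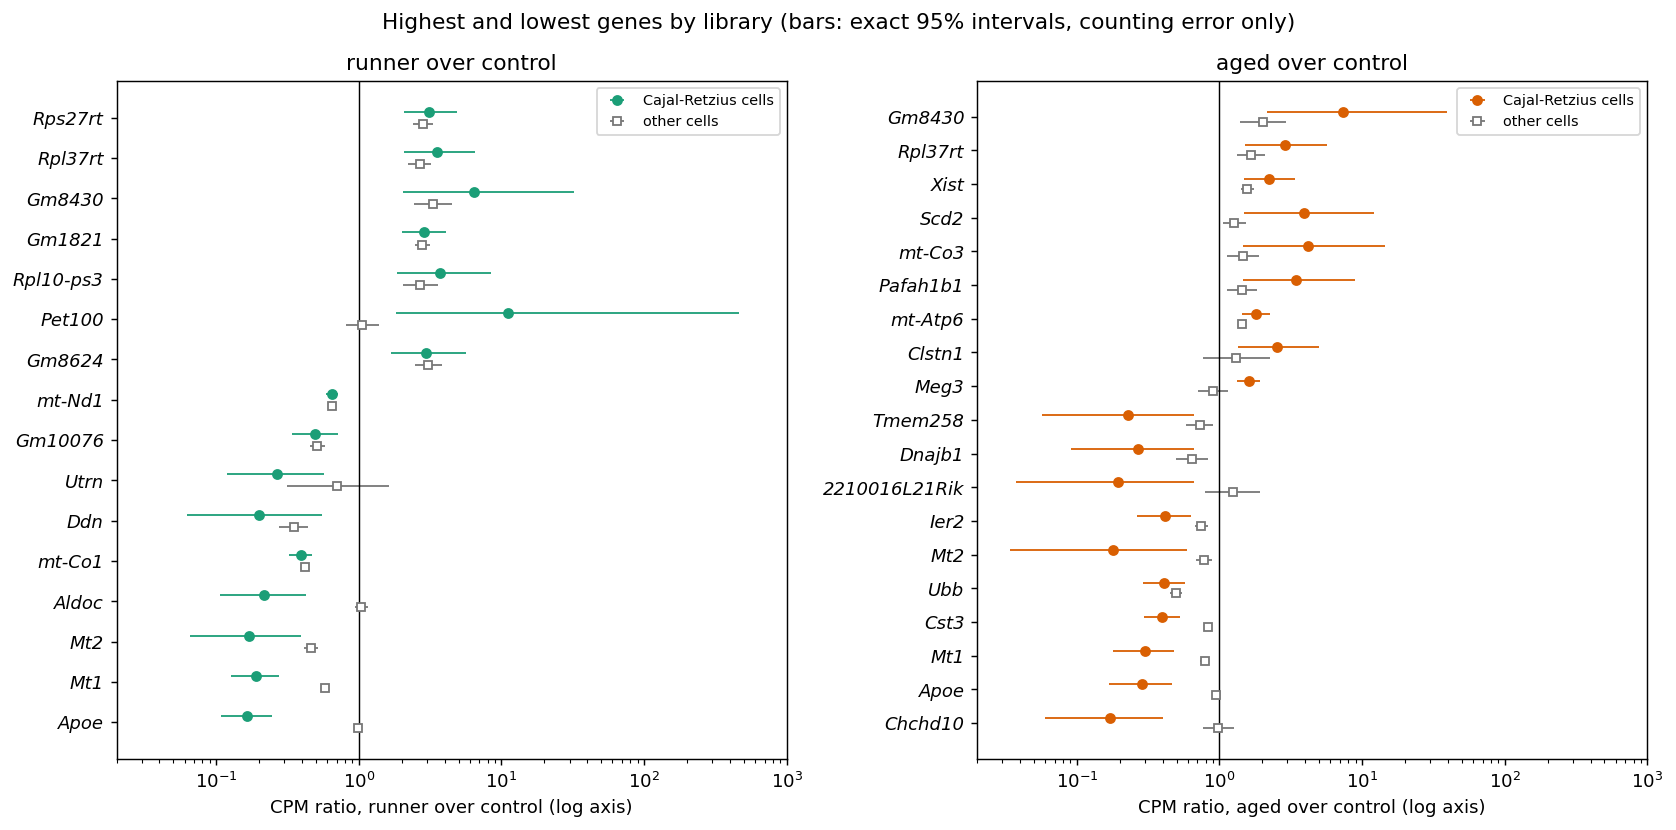
CPM ratio on a log axis, runner over control (left) and aged over control (right), for the reported genes among the 10 highest and 10 lowest, in Cajal-Retzius cells (filled) and in other cells (open squares), with exact 95% intervals. In runner, the ribosomal retrogenes and pseudogenes among the 10 highest genes lie above 1 in both classes, and Gm10076 lies under 1 in both. Chchd10 in aged and Pet100 in runner lie away from the other cells.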

How the data were processed

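For each of the 3 single-cell libraries the authors deposited a gene-by-barcode table of UMI counts, whole numbers without normalization. Tools named per the submitters' processing notes are Seurat 3.1.0 and Cell Ranger 2.1.1, with the build GRCm38. The sources used here do not state the annotation, strand setting or cell calling. A gene missing from a table had UMIs in fewer than 3 barcodes and is called not listed. Barcodes with at least 200 genes and under 10% mitochondrially encoded UMIs were kept. Comparison classes were immature neurons (2 of 4 genes), mature glutamatergic neurons (2 of 4) and microglia (3 of 6), with 212, 75 and 819 cells. UMIs were summed per class and library and divided by the total to give CPM. Ratios between libraries carry exact conditional binomial 95% intervals and use genes with at least 20 UMIs over both libraries. Ratios to other cells use CPM plus 20, and log2 ratios of lists between libraries use 0.5 added counts. Doublets were not removed; Scrublet in Scanpy called 6 runner, 2 aged and 2 control cells, of which 2, 1 and 1 were Cajal-Retzius cells. No test was run, since each group has 1 library and the cells were chosen on these counts. The cells and gene lists were chosen with earlier results of these data known. Genes named between libraries were the 10 highest and 10 lowest by the interval bound nearest to 1, and against other cells the 20 highest and 10 lowest, with all genes of the lists, and a few of them are not reported here. Ratios were checked on simulated counts that held counting error only, which is what the intervals assume. That check cannot show that the intervals hold for genes with wider spread between cells, such as Apoe and Cst3. SciPy 1.17.1 and pandas 2.3.3 on Python 3.11.15 were used.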

Additional observations from a re-analysis of the deposited data

How the results depend on the processing

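Counting error is large here: the aged comparison rests on 32 Cajal-Retzius cells, and no interval covers differences between mice. No paired analysis was possible because each group has 1 library. Without a mitochondrial limit the shares were 3.11% in runner, 2.16% in aged and 2.87% in control: 17 of the 1990 runner, 17 of the 1877 aged and 17 of the 1789 control barcodes over the limit met the gene rule. With at least 10 UMIs per gene, 485 genes were past 2-fold higher and 220 lower in runner, and 166 higher and 201 lower in aged. With every cell that had a UMI of 5 glial genes left out, C1qa, C1qb, C1qc and Mbp among them, these counts were 47, 29, 13 and 29 on fewer cells. With at least 3 rule genes, 23 were higher in aged, and against runner in place of control 187 were lower in aged. Leaving out 1 library gave 358 to 382 genes higher and 853 to 1033 lower than other cells, since fewer libraries had to pass. Against aged in place of control, the runner log2 ratio was -0.24 for Gm8430. Against runner, the aged log2 ratio was -0.29 for Rpl37rt, -0.066 for mt-Atp6, 0.80 for Apoe and 0.67 for Mt1. The runner ratio of Mt1 was 0.39 on the log2 scale without cells that had those 5 glial genes, and the cause was not tested. Leaving out cells with 3 or more glial markers was chosen after seeing the data.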
